A study of Mus musculus with 2 samples.

Results

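The genes described here encode the enzymes and transporters of glycolysis, the regulators and targets of the hypoxia response, and the enzymes of the pentose phosphate pathway. They were chosen by gene symbol from a list of 38 names, of which 20 belong to glycolysis, 13 to the hypoxia response and 5 to the pentose phosphate pathway. Of these, 34 were named by at least 1 probe set annotated with a single gene symbol, among 18193 such genes in all, and they had 77 probe sets. Gpi1, Eno1, Bnip3l and G6pdx were not analysed here, because no probe set was annotated with them alone. Ero1l is listed under its current symbol, Ero1a.

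Peritoneal macrophages of C57BL/6J mice were cultured with LPS+CPN+GGOH on 1 array and with LPS+CPN on the other. Both arrays carried cells that thioglycolate, an irritant, had drawn into the peritoneal cavity, taken 3 days after its injection, and both cultures received lipopolysaccharide (LPS), a bacterial activator of macrophages, and CPN, which the labels give by this abbreviation alone. GGOH is geranylgeraniol, an isoprenoid alcohol that cells can use for protein geranylgeranylation. The question was what GGOH, added to LPS+CPN, changes in the macrophage transcriptome. The labels give neither dose nor length of treatment, and do not say whether cells of several mice were pooled. With 1 array per condition there was no test, and every value describes these arrays alone.

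Glycolysis splits glucose into pyruvate in the cytosol, and lactate dehydrogenase turns pyruvate into lactate, which restores the NAD+ that the pathway consumes. Macrophages activated with LPS take up more glucose and rely on glycolysis, and the transcription factor HIF-1 drives many of its genes together with targets such as Vegfa. Prolyl hydroxylases (the Egln genes) mark HIF alpha subunits for the ubiquitin ligase subunit VHL when oxygen is present. The pentose phosphate pathway branches off at glucose 6-phosphate and yields NADPH, which serves the oxidative burst and antioxidant defence, and ribose for nucleotides.

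HIF factors bind a short core, read here as ACGTG or GCGTG on either strand, so the promoters of the members that differed most are shown, with Ldha as a bright glycolytic gene that differed little. Each line gives the 250 bases before the most upstream RefSeq start of the gene (GRCm38.p6), 5′ to 3′ along the gene, with the matches in capitals.
Adm (chr7:110627407-110627656, plus strand): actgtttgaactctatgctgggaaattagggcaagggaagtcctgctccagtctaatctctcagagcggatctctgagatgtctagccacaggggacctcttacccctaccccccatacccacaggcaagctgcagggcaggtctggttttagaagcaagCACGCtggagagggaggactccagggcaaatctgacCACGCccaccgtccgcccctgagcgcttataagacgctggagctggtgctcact
Vegfa (chr17:46032378-46032627, minus strand): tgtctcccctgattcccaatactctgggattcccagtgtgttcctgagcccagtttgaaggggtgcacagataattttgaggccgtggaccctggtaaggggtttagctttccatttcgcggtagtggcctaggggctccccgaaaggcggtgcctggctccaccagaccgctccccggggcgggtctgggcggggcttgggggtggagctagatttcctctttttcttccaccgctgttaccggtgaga
Ankrd37 (chr8:45999851-46000100, minus strand): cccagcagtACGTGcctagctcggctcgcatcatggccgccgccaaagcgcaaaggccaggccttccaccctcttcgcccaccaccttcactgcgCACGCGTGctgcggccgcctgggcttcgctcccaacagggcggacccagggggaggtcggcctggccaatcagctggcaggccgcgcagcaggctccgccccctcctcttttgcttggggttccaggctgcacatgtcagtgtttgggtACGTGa
Hk2 (chr6:82774455-82774704, minus strand): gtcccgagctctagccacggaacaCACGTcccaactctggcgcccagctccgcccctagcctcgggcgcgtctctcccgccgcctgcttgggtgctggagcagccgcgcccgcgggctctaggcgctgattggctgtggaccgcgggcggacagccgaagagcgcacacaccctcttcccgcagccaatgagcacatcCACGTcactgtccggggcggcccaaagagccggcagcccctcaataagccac
Slc16a3 (chr11:120948817-120949066, plus strand): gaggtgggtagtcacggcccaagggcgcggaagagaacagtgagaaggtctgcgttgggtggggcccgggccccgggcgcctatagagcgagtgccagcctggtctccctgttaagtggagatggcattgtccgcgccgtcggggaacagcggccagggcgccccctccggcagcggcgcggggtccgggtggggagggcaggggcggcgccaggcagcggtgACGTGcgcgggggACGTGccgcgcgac
Hk3 (chr13:55021386-55021635, minus strand): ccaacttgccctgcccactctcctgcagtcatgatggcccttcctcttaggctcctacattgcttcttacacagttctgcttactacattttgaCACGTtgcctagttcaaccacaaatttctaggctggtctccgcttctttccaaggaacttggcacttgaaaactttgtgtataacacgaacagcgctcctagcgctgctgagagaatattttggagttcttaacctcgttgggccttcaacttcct
Ldha (chr7:46845554-46845803, plus strand): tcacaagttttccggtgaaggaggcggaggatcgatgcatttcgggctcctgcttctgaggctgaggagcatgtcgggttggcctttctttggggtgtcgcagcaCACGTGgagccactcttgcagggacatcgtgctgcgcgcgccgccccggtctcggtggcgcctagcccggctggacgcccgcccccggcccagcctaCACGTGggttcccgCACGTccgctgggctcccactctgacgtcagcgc

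The Adm window held 2 GCGTG matches, whose first bases lay 90 and 54 bases before the start, and the Vegfa window held neither core. The Ankrd37 window held ACGTG at 241 and 6 bases and GCGTG at 155 and 152 bases before the start. Hk2 had ACGTG at 226 and 52 bases, Slc16a3 at 27 and 14 bases and Hk3 at 156 bases before the start. In Ldha, 2 copies of CACGTG, which contains ACGTG on both strands, and a further ACGTG at 34 bases gave all its matches. Windows were found for 35 of the 38 listed genes, and 27 of the 35 (77.1%) held ACGTG or GCGTG. The share was 56.4% of 9351 windows of genes measured on the arrays and 38.6% of 27025 windows of all genes in the RefSeq table. By group it was 75% of 20 glycolytic, 70% of 10 hypoxia and 100% of 5 pentose phosphate windows. The list was chosen to hold hypoxia targets, so these shares are not a test of it. The median GC content was 60.4% in the members' windows, 60% in those of measured genes and 52% in the whole table. A match is a string of letters and not a bound site. Members with a match had log2 ratios from -1.20 to 2.22 (median -0.26, 25 genes), and members without one from -0.37 to 1.28 (median -0.17, 6 genes).

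Signals are MAS5 intensities on a linear scale, which compare the same probe set between arrays and not different genes. A probe set at or below 59.9, the median of all signals, was treated as at the floor. The log2 ratio is LPS+CPN+GGOH over LPS+CPN, taken for a gene from its brightest probe set. Across 4166 genes with several measured probe sets, ratios of probe sets of the same gene had a pooled SD of 0.45 on the log2 scale, the only scale of error available. It was taken within the same arrays and so leaves out variation between cultures.

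Most members differed little. Of 33 measured members, Vegfa and Adm were at least 2-fold higher with LPS+CPN+GGOH, where 5.5% of all 11518 measured genes were, and Ankrd37 was at least 2-fold lower, where 1.66% of all measured genes were. With bounds taken at their value, 23 of the 33 lay within the SD of 0.45 around 0 and 30.3% beyond it, against 30.6% of all measured genes. The log2 ratio was below 0 for 22 of 33 members (66.7%), against 51.4% of all measured genes. The median log2 ratio was -0.28 for 17 glycolytic members, -0.01 for 12 hypoxia members and -0.25 for 4 pentose phosphate members, and -0.01 over all measured genes. The gap was smaller under settings that act on signal level: the glycolytic median was -0.10 against -0.07 for all measured genes after quantile normalization, and -0.13 against -0.02 after lowess. The log2 ratio was then below 0 for 20 of 33 members, against 57.1% of all measured genes after quantile normalization and 52.1% after lowess. Dividing each array by its own median (median scaling below) moved the median of all measured genes to -0.17. Setting the median ratio of the macrophage markers to 0 (equal macrophage markers below) moved it to 0.19, and directions below are relative to these shifts.

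**Figure D1:**
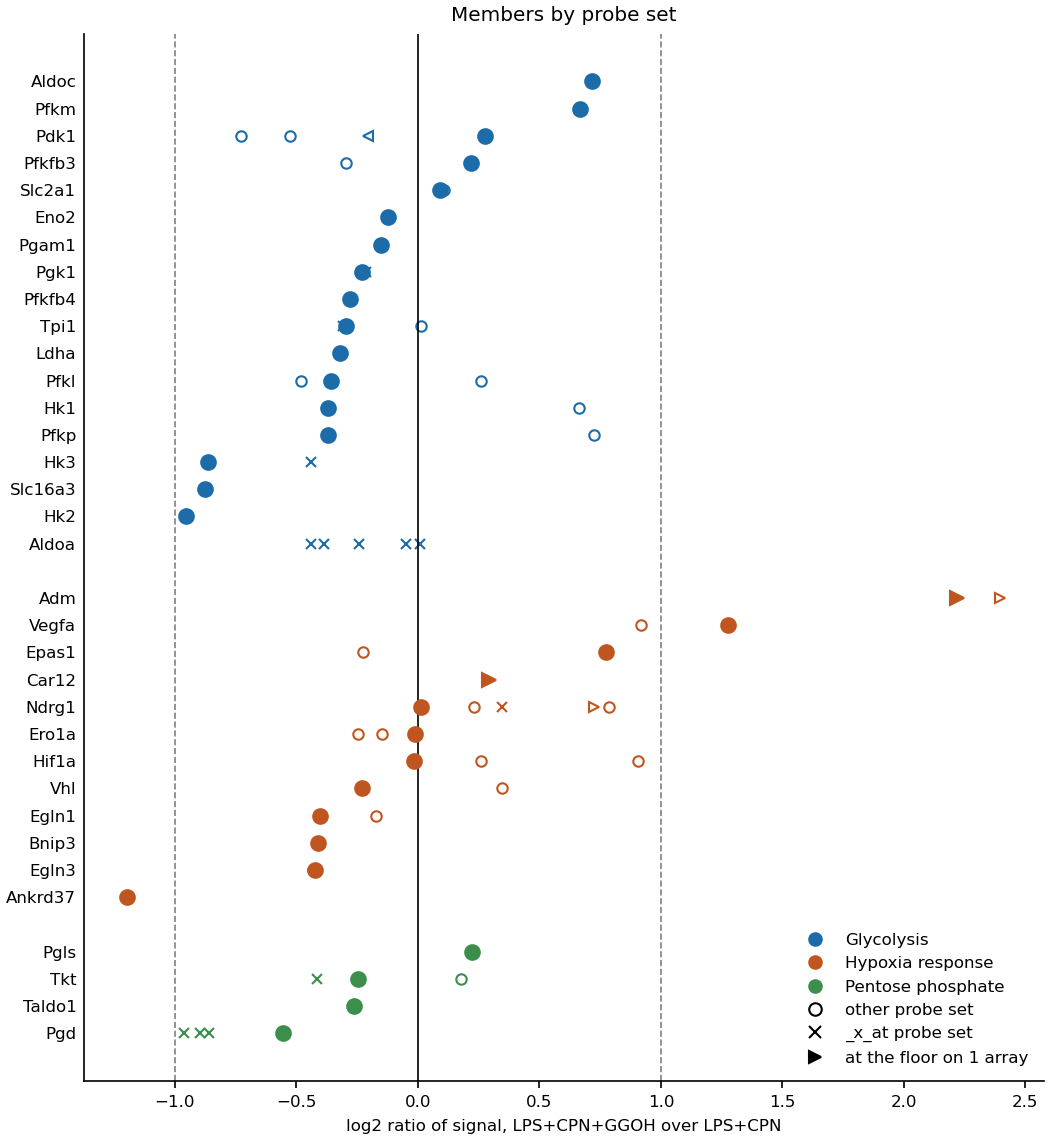
Log2 ratio of signal (x axis), LPS+CPN+GGOH over LPS+CPN, for every measured probe set of the members (rows, by group). Filled symbols are the brightest probe set that stands for the gene, crosses are probe sets of the _x_at class, triangles are bounds from a probe set at the floor on 1 array, and dashed lines mark 2-fold; the filled symbols of Adm and Vegfa lie right of the upper line and that of Ankrd37 left of the lower one.

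Markers of cell types and control probe sets differed between the arrays too. Fibroblast and mesothelial markers summed to a signal of 31274 with LPS+CPN+GGOH and 1735 with LPS+CPN. Of these 20 markers 18 were measured, and 15 of the 18 were at least 2-fold higher, where 5.5% of all measured genes were. With LPS+CPN, 15 of the 20 were at the floor, and the median of all signals of that array, 56.7, also lay below the floor. Macrophage markers summed to 173579 with LPS+CPN+GGOH and 202385 with LPS+CPN. Such sums are weighted to bright genes. Gpnmb had 35563 with LPS+CPN+GGOH and 54110 with LPS+CPN, and the fibroblast marker Col1a2 had 11165 and 287. The median log2 ratio of 16 measured macrophage markers was -0.22. Of the 16, 7 lay above 0 and 9 below, from Itgam at 1.05 and C1qa at 0.87 to Gpnmb at -0.61 and Mertk at -0.73. Cd68 had 0.02 and Adgre1 -0.16. Every marker with a value of B cells (2), T cells (3), mast cells (3) and eosinophils (3) was at the floor on both arrays, as were 3 of 4 endothelial markers. Of the dendritic cell markers, Flt3 was at the floor on both arrays and Zbtb46 had 140 with LPS+CPN+GGOH and 89.2 with LPS+CPN (log2 ratio 0.65). The neutrophil gene S100a8 had 2216 with LPS+CPN+GGOH and 4282 with LPS+CPN, with its partner S100a9 at the floor on both. The control probe sets of Gapdh, a glycolytic enzyme with no other probe set used here, gave 28292 with LPS+CPN+GGOH and 16659 with LPS+CPN at the 5′ end, a log2 ratio of 0.76, but 27052 with LPS+CPN+GGOH and 33021 with LPS+CPN at the 3′ end, a ratio of -0.29. Control probe sets of the actin gene Actb had log2 ratios of 0.92 at the 5′ end, 0.42 in the middle and -0.05 at the 3′ end. In both control genes the ratio thus fell from the 5′ to the 3′ end, with the middle of Gapdh at 0.13. The part of these differences, of cell type markers and along the control transcripts, in the members' values was not tested. In RNA from a whole culture, fewer cells of a type and less RNA per cell cannot be told apart.

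Glucose enters the cell through transporters and is trapped by hexokinases, and the members at this step diverged. Slc2a1, the glucose transporter GLUT1, had 12820 with LPS+CPN+GGOH and 12030 with LPS+CPN. Its 3 probe sets had log2 ratios from 0.09 to 0.11, close to 0, and the gene value was -0.07 after median scaling. Hk2, the inducible hexokinase, had 4078 with LPS+CPN+GGOH against 7895 with LPS+CPN on its only probe set. That is 1.94-fold lower, a log2 ratio of -0.95. Hk3, a hexokinase prominent in myeloid cells, had 5395 with LPS+CPN+GGOH against 9809 with LPS+CPN, 1.82-fold lower, and its _x_at probe set had a smaller ratio of -0.44. Both were short of 2-fold at the deposited scaling but passed it after median scaling, at -1.12 for Hk2 and -1.03 for Hk3. Hk1, the widely expressed hexokinase, had 2594 with LPS+CPN+GGOH and 3350 with LPS+CPN on its bright probe set (-0.37). Its dim probe set ran the other way, with 216 with LPS+CPN+GGOH and 137 with LPS+CPN (0.66), and the median of both was 0.15. So 2 of 3 hexokinase genes had a gene value beyond the SD between probe sets, both lower. In either direction, 30.6% of all measured genes lay beyond it. The brighter _x_at probe set of Hk3 lay within it.

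Phosphofructokinase commits sugar to glycolysis and has liver (Pfkl), platelet (Pfkp) and muscle (Pfkm) forms. Pfkl had 2042 with LPS+CPN+GGOH and 2619 with LPS+CPN (log2 ratio -0.36), with its other probe sets at 0.26 and -0.48. Pfkp had 1508 with LPS+CPN+GGOH and 1949 with LPS+CPN (-0.37), and its 2 dim probe sets had -0.37 and 0.72. By gene value only Pfkm lay higher, on a single probe set, with 182 with LPS+CPN+GGOH and 114 with LPS+CPN, 1.59-fold. Pfkfb3 and Pfkfb4 make and remove fructose 2,6-bisphosphate, the activator of phosphofructokinase. Pfkfb3 had 3166 with LPS+CPN+GGOH and 2722 with LPS+CPN (0.22), while a dim second probe set had -0.30 and the median of both was -0.04. Pfkfb4 had 746 with LPS+CPN+GGOH and 906 with LPS+CPN (-0.28).

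Most members of the lower part of glycolysis were bright and lay within the SD between probe sets. Triose phosphate isomerase, Tpi1, had 25297 with LPS+CPN+GGOH and 31038 with LPS+CPN (log2 ratio -0.30), with ratios from -0.31 to 0.01 over 3 probe sets. Phosphoglycerate kinase, Pgk1, had 21929 with LPS+CPN+GGOH and 25723 with LPS+CPN (-0.23), and its 3 probe sets lay between -0.23 and -0.21. Aldoa, the main aldolase, had only _x_at probe sets, which can bind other transcripts, and so no gene value; its 5 probe sets ranged from -0.44 to 0.01. Phosphoglycerate mutase, Pgam1, had a log2 ratio of -0.15 and the enolase gene Eno2 one of -0.12, and both were above 0 under equal macrophage markers, at 0.06 and 0.09. The other aldolase gene, Aldoc, was 1.64-fold higher on 1 dim probe set, with 255 with LPS+CPN+GGOH and 155 with LPS+CPN, and its second probe set was at the floor on both arrays.

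The fate of pyruvate is set by lactate dehydrogenase, by pyruvate dehydrogenase kinases and by the export of lactate. Ldha, which makes lactate, had 28960 with LPS+CPN+GGOH and 36137 with LPS+CPN, a log2 ratio of -0.32 that shrank to -0.07 after quantile normalization. Pdk1, a kinase that inhibits pyruvate dehydrogenase, had 1044 with LPS+CPN+GGOH and 861 with LPS+CPN (0.28). Its other 3 probe sets were all lower, at -0.53, -0.73 and -0.21 (the last a bound), and the median over its probe sets was -0.37. Slc16a3, the lactate exporter MCT4, had 251 with LPS+CPN+GGOH against 461 with LPS+CPN, 1.84-fold lower. It was past 2-fold after median scaling and after quantile normalization, at -1.04 in both. After lowess (-0.97) and under equal macrophage markers (-0.66) it was short of 2-fold.

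**Figure D2:**
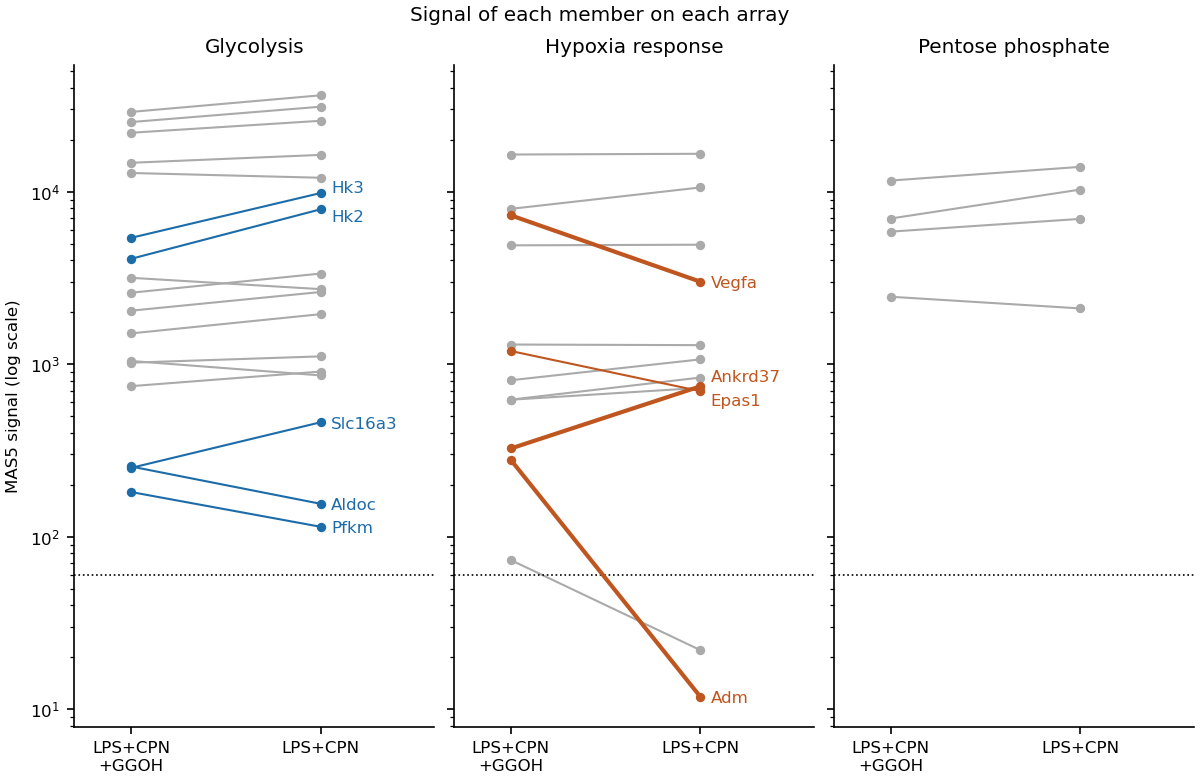
MAS5 signal (y axis, log scale) of each measured member on the LPS+CPN+GGOH array (left) and the LPS+CPN array (right), by group, with the floor of 59.9 as a dotted line. Coloured lines are members at least 1.5-fold apart after the floor and thick lines those at least 2-fold apart; Hk2, Hk3 and Slc16a3 are lower at the left end, Vegfa and Adm are higher there.

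Counting at 1.5-fold, a threshold chosen after the values were seen, 2 of 17 glycolytic members were higher with LPS+CPN+GGOH (Pfkm and Aldoc), where 12.5% of all measured genes were. Lower by as much were 3 of 17 (Hk2, Hk3 and Slc16a3), where 7.82% of all measured genes were. No glycolytic member passed 2-fold at the deposited scaling, where 5.5% of all measured genes were higher and 1.66% lower by as much.

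The hypoxia members differed most among themselves, with an SD of log2 ratios of 0.90 over 12 genes, against 0.48 over the 17 glycolytic ones. Adm, the vasodilator peptide adrenomedullin, had 279 with LPS+CPN+GGOH and 11.8 with LPS+CPN, which is at the floor, so it was at least 4.65-fold higher. Its _x_at probe set had 315 with LPS+CPN+GGOH and 53.7 with LPS+CPN, also a bound. Vegfa, the vascular endothelial growth factor, had 7285 with LPS+CPN+GGOH and 3006 with LPS+CPN. It was 2.42-fold higher on this probe set and had a log2 ratio of 0.92 on the second, with 1191 with LPS+CPN+GGOH and 630 with LPS+CPN. Vegfa stayed at least 2-fold higher under each of the 9 other settings (log2 ratio 1.10 to 1.49). Ankrd37, an ankyrin repeat protein known as a HIF-1 target, ran the other way, with 325 with LPS+CPN+GGOH and 744 with LPS+CPN on 1 probe set, 2.29-fold lower. Its log2 ratio was -0.98 under equal macrophage markers, short of 2-fold. Fibroblast and mesothelial markers were higher on the array on which Adm and Vegfa were higher, and their part in these values was not tested.

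The HIF subunits and regulators among the members lay nearer to 0. Hif1a, the alpha subunit of HIF-1, had 16403 with LPS+CPN+GGOH and 16564 with LPS+CPN on its brightest probe set, a log2 ratio of -0.01. Dimmer probe sets of Hif1a had ratios of 0.26 and 0.91, the last with 243 with LPS+CPN+GGOH and 130 with LPS+CPN. Epas1, which encodes HIF-2 alpha, had 1192 with LPS+CPN+GGOH and 698 with LPS+CPN, 1.71-fold higher. Its second probe set had -0.23, and the median of both was 0.27. Egln3 and Egln1, prolyl hydroxylases that are themselves induced by HIF, were lower on all their probe sets. Egln3 had 623 with LPS+CPN+GGOH and 836 with LPS+CPN (-0.42, and -0.43 on the other probe set), and Egln1 had 807 with LPS+CPN+GGOH and 1066 with LPS+CPN (-0.40 and -0.17). Vhl had 622 with LPS+CPN+GGOH and 729 with LPS+CPN on the brighter probe set (-0.23) and a ratio of 0.35 on the dim one.

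Of the remaining targets, Bnip3, Ero1a and Ndrg1 lay within the SD between probe sets, and Car12 was known only by a bound. Bnip3, a mitochondrial protein that promotes mitophagy, had 7944 with LPS+CPN+GGOH and 10567 with LPS+CPN (log2 ratio -0.41). Ero1a, an oxidase of the endoplasmic reticulum, had -0.01, with its 3 probe sets between -0.25 and -0.01, and turned to 0.20 under equal macrophage markers. Ndrg1, a gene induced by hypoxia and stress, had 1300 with LPS+CPN+GGOH and 1289 with LPS+CPN on its brightest probe set (0.01). All 5 of its probe sets were above 0, up to 0.79, and their ratios had a median of 0.48 without the _x_at one; the brightest turned to -0.15 after median scaling. Car12, a carbonic anhydrase, had 73.3 with LPS+CPN+GGOH and 22.0 with LPS+CPN, at least 1.22-fold higher, and its other 2 probe sets were at the floor on both arrays.

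**Figure D3:**
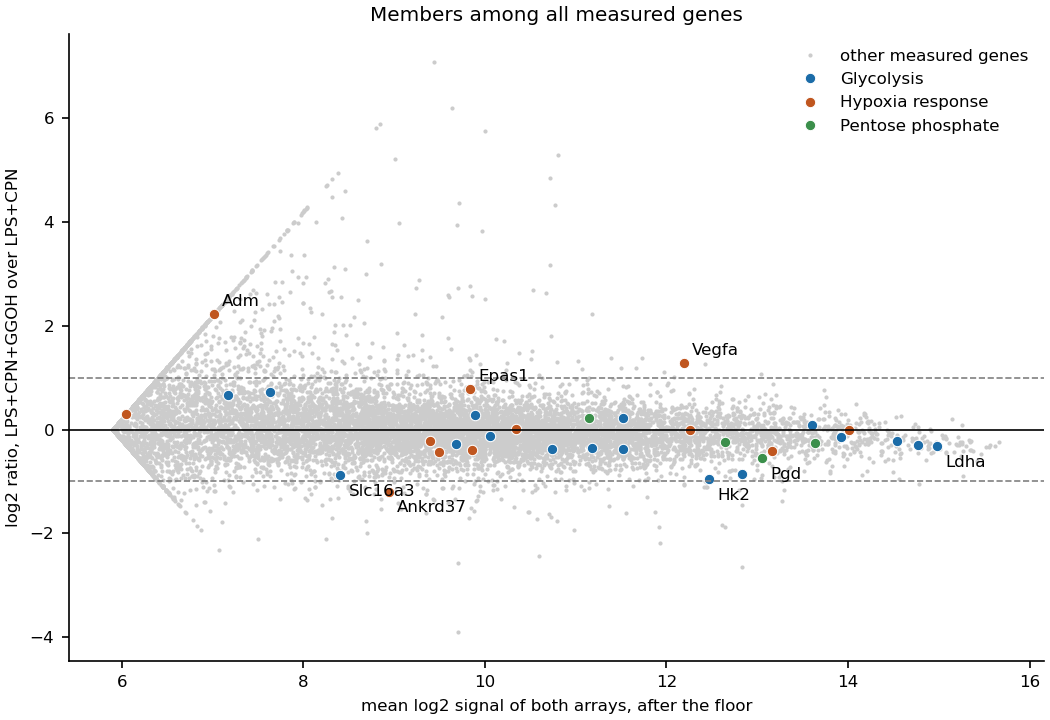
Log2 ratio (y axis), LPS+CPN+GGOH over LPS+CPN, against the mean log2 signal of both arrays after the floor (x axis) for all measured genes (grey) and the members (coloured by group), with dashed lines at 2-fold. Most members lie within the grey band; Vegfa stands above it and Ankrd37 below the lower dashed line, and the straight edges at the left are genes at the floor on 1 array.

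In the pentose phosphate pathway 3 of 4 measured members had ratios below 0, where 51.4% of all measured genes did. None passed 2-fold, where 5.5% of all measured genes were higher and 1.66% lower by as much. Pgd, the dehydrogenase of the second NADPH-yielding step, was lower on all 4 probe sets. Its gene value was 6983 with LPS+CPN+GGOH against 10273 with LPS+CPN, 1.47-fold lower (log2 ratio -0.56). Its 3 _x_at probe sets were brighter and further apart, at -0.86, -0.89 and -0.96, the last with 11352 with LPS+CPN+GGOH and 22120 with LPS+CPN. Pgls, which hydrolyses the lactone between the oxidative steps, had 2459 with LPS+CPN+GGOH and 2105 with LPS+CPN (0.22). In the part that interconverts sugars, transketolase (Tkt) had 5862 with LPS+CPN+GGOH and 6948 with LPS+CPN (-0.25), with a dim probe set at 0.18 and an _x_at one at -0.41. Transaldolase (Taldo1) had 11587 with LPS+CPN+GGOH and 13910 with LPS+CPN (-0.26).

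Probe sets of the same gene often disagreed. Of 21 members with several measured probe sets, 11 (52.4%) had ratios of both signs, against 53.9% of 5395 such genes in all. The other 10 had 1 sign throughout: Slc2a1, Ndrg1, Adm and Vegfa were higher on all measured probe sets, and Hk3, Pgk1, Egln1, Egln3, Ero1a and Pgd were lower on all.

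Other genes of the same pathways came from lists separate from the members. Of 19 measured glycolysis and pyruvate genes, 0 were at least 2-fold apart in either direction, and the median log2 ratio was 0.06. By as much, 5.5% of all measured genes were higher and 1.66% lower. Slc16a1, the monocarboxylate transporter MCT1, had 1932 with LPS+CPN+GGOH and 1068 with LPS+CPN, 1.81-fold higher, opposite in sign to Slc16a3. Its sign held under all settings (0.69 to 1.07). Slc2a3, the glucose transporter GLUT3, had a ratio of 0.52, the ADP-dependent glucokinase gene Adpgk 0.41 and the lactate dehydrogenase gene Ldhb -0.32. The second probe set of Ldhb had 0.62, and over the settings its value ran from -0.48 to 0.15. Pkm, the pyruvate kinase, had 12461 with LPS+CPN+GGOH and 12812 with LPS+CPN (-0.04).

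Among 27 measured other hypoxia genes, 4 were at least 2-fold higher with LPS+CPN+GGOH and 0 lower, with a median of -0.16, where 5.5% of all measured genes were higher and 1.66% lower by as much. After quantile normalization 1 of the 27 was lower. Cited2, which competes with HIF-1 alpha for the coactivators CBP and p300, had 4990 with LPS+CPN+GGOH and 1071 with LPS+CPN, 4.66-fold higher, with a log2 ratio of 1.81 on its other probe set. Plod2, a lysyl hydroxylase of collagen, had 283 with LPS+CPN+GGOH and 24.5 with LPS+CPN, at least 4.72-fold higher. Angptl4, a secreted inhibitor of lipoprotein lipase, had 220 with LPS+CPN+GGOH and 3.46 with LPS+CPN, at least 3.67-fold higher. Ddit4, an inhibitor of mTORC1, had 2775 with LPS+CPN+GGOH and 1131 with LPS+CPN, 2.45-fold higher. As with Adm, Plod2 and Angptl4 were at the floor without GGOH, as 15 of 20 fibroblast and mesothelial markers were. The median signal of the LPS+CPN array, 56.7, lay below the floor of 59.9, so most of its signals were at the floor. The part of the fibroblast and mesothelial markers was not tested. Arnt, the partner of the HIF alpha subunits, had -0.03. A further alpha subunit gene, Hif3a, had -0.91, a bound, and its probe sets disagreed, with the highest ratio at 1.20.

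Of 6 measured other pentose phosphate and ribose genes none passed 2-fold, where 5.5% of all measured genes were higher and 1.66% lower by as much. The median log2 ratio of the 6 was 0.30. H6pd, which carries out the first steps of the pathway inside the endoplasmic reticulum, had 891 with LPS+CPN+GGOH and 483 with LPS+CPN (0.88). Prps1 and Prps2, which turn ribose 5-phosphate into the precursor of nucleotides, had ratios of 0.87 and 0.55. Rpia, the ribose phosphate isomerase, had -0.28. Under equal macrophage markers, 2 of the 6 were at least 2-fold higher, where 898 of all 11543 measured genes were.

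**Figure D4:**
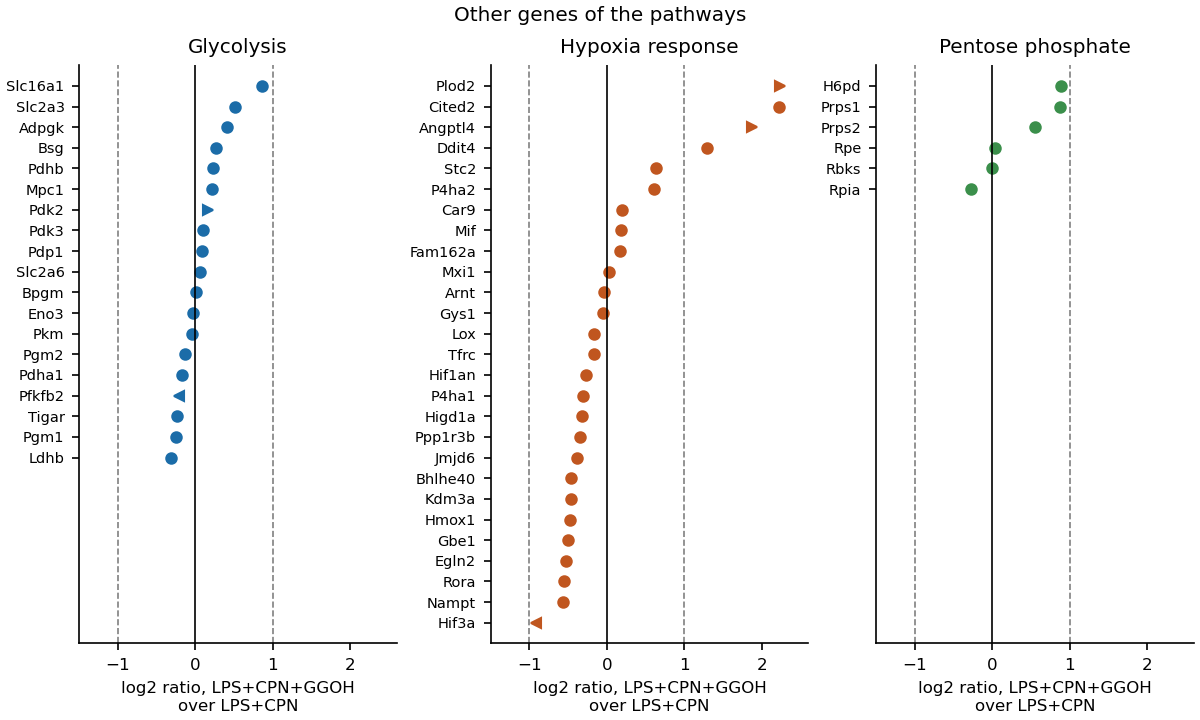
Log2 ratio (x axis), LPS+CPN+GGOH over LPS+CPN, of measured genes of the same pathways that are not members (rows), with dashed lines at 2-fold and triangles for bounds. In the hypoxia panel Plod2, Cited2, Angptl4 and Ddit4 lie right of the upper line, and in the other panels no gene does.

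**Figure D5:**
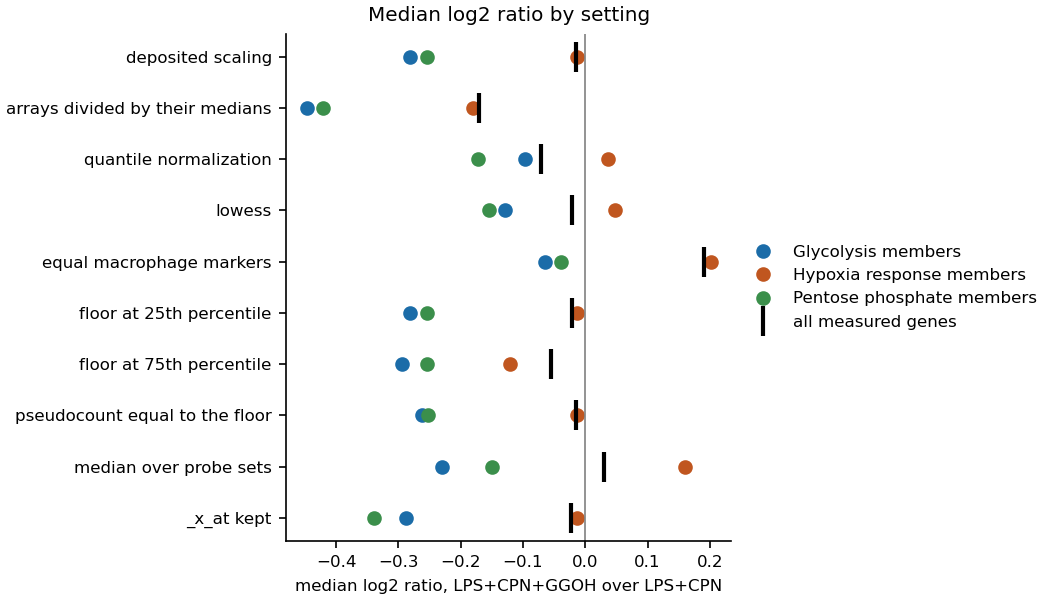
Median log2 ratio (x axis), LPS+CPN+GGOH over LPS+CPN, of each group of members (coloured points) and of all measured genes (black bars) under the deposited scaling and 9 other settings (rows). The glycolytic and pentose phosphate medians lie left of the bar in every row, by less after quantile normalization and lowess, while the hypoxia median lies on both sides of 0.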

How the data were processed

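RNA of 2 cultures was hybridised to 1 array each. The deposited values are signal intensity values on a linear scale, 45101 probe sets per array, made by the authors with MAS5 per the submitters' processing notes. No source used here states the MAS5 version or scaling target. The mean of the central signals, leaving out 2% at each end, was 500.0 on both arrays, and the median was 63.7 with LPS+CPN+GGOH and 56.7 with LPS+CPN. Detection calls were not used here, and precision is limited by the number of arrays.

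Gene names came from the platform annotation: 34945 had 1 gene symbol, and 932 with several and 9160 with none were left unnamed. Gene identifiers were matched to a RefSeq table of GRCm38.p6. A gene took its brightest probe set outside the _x_at class, with a floor at the 50th percentile of all non-control signals. All members were named; in full, those at least 2-fold apart, the 4 largest ratios per group and those with probe sets of both signs, and of the other lists those past 2-fold and up to 4 per list. Pkm, Arnt and Hif3a, and Ldha among the promoters, were added after their values were seen. The members and lists were chosen with earlier results of these data known. Alternatives were 9 other settings of scaling, floor and probe set choice. Steps were tested on simulated data. Python 3.11.15, pandas 2.3.3 and statsmodels 0.14.6 were used.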

Additional observations from a re-analysis of the deposited data

How the results depend on the processing

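The direction of the log2 ratio was kept under all settings tried for 23 of 33 members. It was not for Eno2, Ero1a, Hif1a, Hk1, Ndrg1, Pdk1, Pfkfb3, Pgam1, Slc2a1 and Vhl, which lay near 0 or had probe sets of both signs. Members at least 2-fold lower with LPS+CPN+GGOH numbered 1 at the deposited scaling, 4 after median scaling, 2 after quantile normalization, 0 under equal macrophage markers and 0 with a floor at the 75th percentile. In the same order, the measured genes lower by as much numbered 191 of 11518, 332 of 11547, 307 of 11545, 91 of 11543 and 88 of 7058. Members at least 2-fold higher numbered 2, or 3 at a floor of the 25th percentile (Car12 added) and 1 with it at the 75th, where 29 members were measured and Adm was not. Measured genes higher by as much numbered 634 of 11518 at the deposited scaling, 1658 of 15911 at the lower floor and 126 of 7058 at the higher one. The glycolytic median ranged from -0.45 to -0.07 and the pentose phosphate median from -0.42 to -0.04 and both kept their sign; the hypoxia median, -0.18 to 0.20, did not. Of 293 single values under other settings, 7 moved by more than 0.45. Adm and Car12 did so with the lower floor. Slc16a3 did so with the higher one, where its LPS+CPN+GGOH signal was at the floor and -0.29 is a bound. With the median over probe sets, Hk1, Pdk1, Epas1 and Ndrg1 did so. There Hk1 turned from -0.37 to 0.15 and Pdk1 from 0.28 to -0.37. The cause of these shifts was not tested beyond the settings' own construction. That construction limits how many values could move. For genes above the floor on both arrays, median scaling and equal macrophage markers each change all ratios by the same amount, less than 0.45. A changed floor leaves the ratios of bright genes as they were. No paired analysis was possible because each condition had 1 array, and no replicate could be left out.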
